A study of Bos taurus with 18 samples.

Results

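The 16-cell bovine embryo was compared with the stages on either side of it, the 8-cell embryo and the blastocyst, to find the genes whose RNA was higher or lower at 16 cells than at both. The comparison used 9 of the 18 RNA sequencing libraries of the study, 3 per stage, and each gene at 16 cells was set against the mean of the 8-cell and blastocyst stage means and against each neighbour separately. The other 9 libraries were 3 each of immature oocytes with an intact germinal vesicle (GV), of matured oocytes at metaphase II (MII) and of 4-cell embryos. They entered the fit for the estimate of the spread and counted in the choice of genes tested. They also gave the comparisons between the earlier stages reported below. All embryos were produced in vitro from abattoir oocytes of German Simmental cattle, matured and fertilised with the semen of 1 Zebu (Brahman) bull and cultured in synthetic oviduct fluid, so the 3 stages share breed, sire and culture. The oocytes were of German Simmental breed alone. Each library was made from a separate pool of 10 embryos or oocytes chosen by eye. A p-value here measures the spread between pools of one production system, and the labels do not say whether pools of one number shared a day or a batch.

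In cattle the embryonic genome takes over transcription mainly between the 8-cell and the 16-cell stage, while the RNA stored in the oocyte is broken down. The 16-cell embryo is about to compact. Its cells then form junctions and polarity, and by the blastocyst stage they have parted into the trophectoderm, the outer epithelium that pumps fluid and forms the placenta, and the inner cell mass, which holds the pluripotent cells and the later hypoblast. A gene with its highest level at 16 cells is therefore not part of a simple increase from the 8-cell embryo to the blastocyst. RNA was measured in whole embryos, so fewer cells of a type and less RNA per cell cannot be told apart.

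The 9 libraries held 2438473 to 11203818 reads assigned to genes. The 16-cell libraries had 7456788, 2438473 and 3763632 reads, and reads in 11970, 12903 and 14146 genes, against 12393 to 14618 genes at 8 cells and 14760 to 15399 in blastocysts. Replicates were less alike at 16 cells (Spearman rho across genes 0.854 to 0.881) and 8 cells (0.858 to 0.909) than in blastocysts (0.931 to 0.949). In the oocyte and 4-cell stages rho was 0.935 to 0.954. The fit took 1 spread per gene over all 18 libraries, so it can understate the spread at 16 cells and give p-values that are too small. The 16-cell replicate 1 and the 8-cell replicate 2 stood furthest from their groups, with the fewest genes of their stages and limma array weights of 0.31 and 0.304. Values below are scaled counts, the recovered number of reads times a factor per library, on which 1 read was worth 0.667 to 2.82 units. A count of 0 in a 16-cell replicate 1, 2 or 3 allows up to 3.37, 8.47 or 5.57 scaled counts, which covers counting error only. Differences are differences of the deposited values, which come close to log2 ratios at high counts and are smaller than these at low counts.

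At 16 cells 411 genes were higher than at both neighbours and 695 were lower than at both, of 17138 tested. These are 2.40% and 4.06% of the genes tested, the background for the counts below of list members called against both neighbours. All lists and their members were chosen with earlier results of these data known, so counts of list members are no independent evidence. A gene counted when limma gave an adjusted p (Benjamini-Hochberg over all genes tested, two-sided) under 0.05 with the same sign in both comparisons, which share the 16-cell libraries. Against the 8-cell embryo alone 2537 genes (14.8%) were higher and 2800 (16.3%) lower, and against the blastocyst alone 2250 (13.1%) were higher and 3117 (18.2%) lower. These shares are the background for the counts below of list members against a single neighbour. The contrast with the mean of both neighbours called 1739 genes higher (10.1%) and 2304 lower (13.4%), the background for counts of list members against that mean. Of the 1739, the 411 were called against each neighbour, 528 lay above both but were called against the 8-cell embryo only, 454 against the blastocyst only, 24 against neither, and 322 lay between the neighbours. Of the 2304, the corresponding numbers were 695, 499, 662, 12 and 436.

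The genes higher than both had a median smaller difference of 1.80 (0.62 to 5.74), where the smaller difference is the lesser of a gene's 2 differences in absolute size. It was at least 2 in 162 genes and at least 3 in 72. For the genes lower than both the median was 2.20 (0.69 to 5.10), with 413 genes at 2 or more and 120 at 3 or more. In 349 of the 411 all 3 16-cell libraries lay above all 6 neighbour libraries, a pattern seen in 745 genes (4.35% of those tested), and in 517 of the 695 all 3 lay below, a pattern seen in 692 genes (4.04%). Libraries of the stages overlapped in the other 62 and 178 genes. The mean contrast called every one of the 411 and of the 695.

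**Figure D1:**
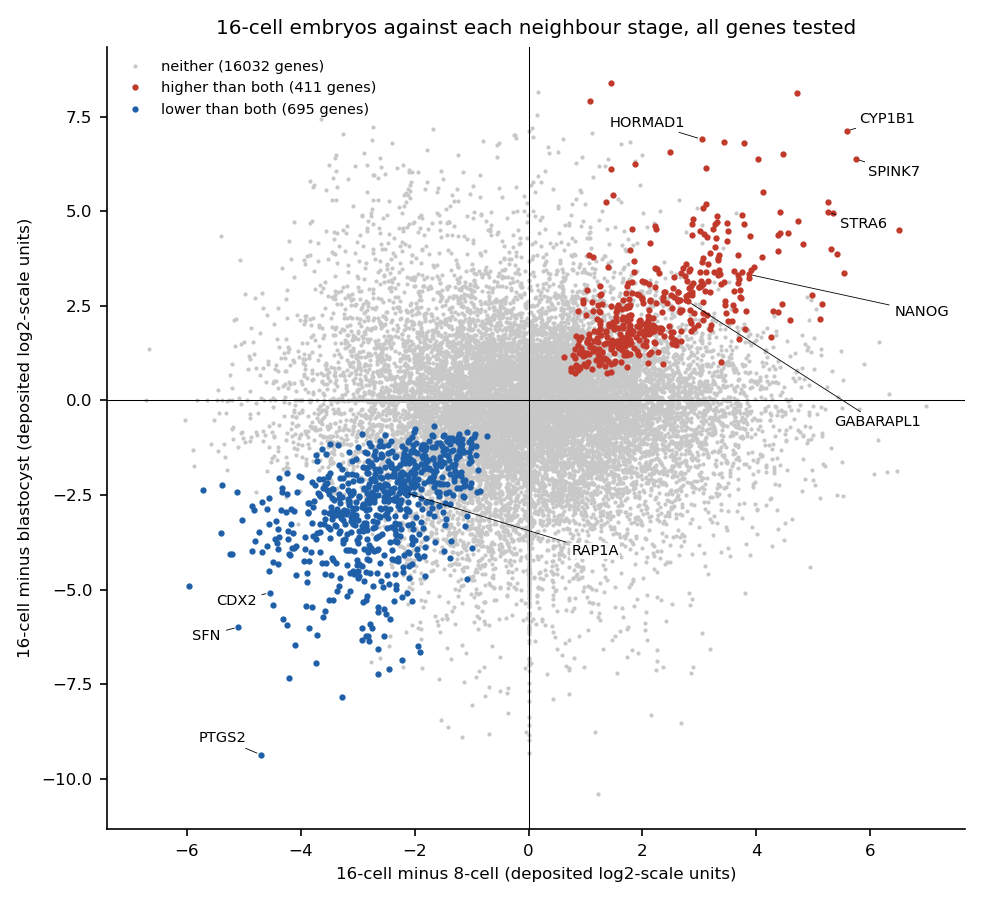
Difference of each tested gene at 16 cells from the 8-cell embryo (horizontal) and from the blastocyst (vertical), in differences of stage means of the deposited log2-like values. Red points are the 411 genes higher than both neighbours, blue points the 695 genes lower than both, and grey points the other 16032 genes, so the called genes fill the upper right and lower left corners.

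The calls depended on single libraries. Of the 411 higher genes 153 (37.2%) were called with each of the 9 libraries left out in turn, and of the 695 lower genes 301 (43.3%). Leaving out the 16-cell replicate 1 and the 8-cell replicate 2 together, an alternative chosen after seeing the data, called 374 genes higher and 618 lower, and 200 of the 411 (48.7%) and 432 of the 695 (62.2%) were among them. With reads of all libraries thinned to the shallowest one, also chosen afterwards, 377 genes were higher than both and 601 lower. The share of higher genes among the calls against the blastocyst was 41.9%, and 54.4% when library medians were set equal, a scaling that moved the median difference of all genes from the blastocyst from -0.18 to 0.17. Among genes called against both neighbours it was 37.2%, and 48.9% with limma voom on the recovered reads, where the share against the mean of both neighbours moved from 43% to 55.1%. Where the values of a called gene are described below and its call was lost on leaving out a library, those libraries are given. GATA2, OCLN, EZR, CTNNA1, TEAD1, KRT7 and ACLY, the marker genes of other cell types, and all members named from lists written after the values were seen, lie outside the rule for naming genes and were picked with their values known.

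Most of the higher genes had reads at earlier stages. Their median level was 158 scaled counts in GV oocytes, 141 in MII oocytes, 119 at 4 cells, 293 at 8 cells, 1069 at 16 cells and 233 in blastocysts, where the medians of all genes tested ran from 39.4 to 70.1. Over the 6 stages 393 of the 411 had their highest mean at 16 cells, which the choice of the genes largely fixes. No reads were found in any of the 9 oocyte and 4-cell libraries for 28 of them (6.81%, against 5.15% of all genes), in all 8-cell libraries for 33, and in all blastocyst libraries for 25. Between MII and GV oocytes 0 of the 411 were higher and 7 (1.7%) lower, where limma called 17 (0.0992%) and 105 (0.613%) of all genes. Between 4-cell embryos and MII oocytes the numbers were 0 and 10 (2.43%), against 11 (0.0642%) and 125 (0.729%) of all genes.

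The lower genes had this course over the stages. Their median level was 295, 284, 286 and 232 scaled counts from GV oocytes to 8 cells, 41.6 at 16 cells and 247 in blastocysts. The 16-cell mean was the lowest of the 6 stages in 662 of the 695, which the choice of the genes largely fixes. In 8 of them no reads were found in any of the 9 oocyte and 4-cell libraries. There were 61 genes with 0 reads in all 3 16-cell libraries and 114 with at most 3 reads over the 3. The 16-cell libraries included the 2 shallowest of the 9 and the one with the fewest genes, and at equal depth 601 genes were lower, as given above. In the oocyte stages 1 of the 695 was higher and 1 lower in MII than in GV oocytes (0.144% each), and 0 were higher and 3 (0.432%) lower in 4-cell embryos than in MII oocytes.

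The 15 largest rises were named by the size of the smaller difference among genes with a symbol and no overlap. Among them were several enzymes and secreted proteins with much lower levels at both neighbour stages. SPINK7, a Kazal-type inhibitor of serine proteases, was at 864, 251 and 61.2 scaled counts in 16-cell replicates 1, 2 and 3. It was at 0.713, 0 and 7.87 at 8 cells and at 2, 0 and 0 in blastocysts. The 16-cell libraries ranged from 61.2 to 864 and all lay above the others, and the differences of 5.74 ± 1.04 (SE) and 6.39 had adjusted p of 3.3e-04 and 7.8e-05. The ratio to the 8-cell mean was 137. TDH, the threonine dehydrogenase that feeds one-carbon metabolism in mouse pluripotent cells, was at 888, 740 and 171, against 45.6, 0 and 97.1 at 8 cells and 29.3, 0 and 0 in blastocysts. Its mean was 12.6-fold above the 8-cell mean and 61.3-fold above the blastocyst mean (adjusted p 0.0079 and 3.1e-04). The larger p became 0.068 without the 8-cell replicate 2.

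XCL2, a chemokine, was at 702, 2761 and 2257 scaled counts at 16 cells. It had 0, 278 and 399 at 8 cells and 40.7, 0 and 0 in blastocysts, so the 8-cell pools ranged from no reads to 399 while all 16-cell pools lay above. The call (adjusted p 0.029 and 5.3e-04) was lost without the 8-cell replicate 1 or the 16-cell replicate 2 or 3, with larger p of 0.075 to 0.23. Another locus that RefSeq calls XCL2 was at 39.3, 2.82 and 66.8 at 16 cells and was higher than both neighbours too, and reads may be shared between these copies. KIAA1539 was at 4508, 2078 and 1385 at 16 cells, against 75.6, 13 and 421 at 8 cells and 52.7, 314 and 132 in blastocysts. This is 15.6-fold and 16-fold above the neighbours (adjusted p 7.5e-04 and 0.0022). In GV, MII and 4-cell libraries its means were 0.632, 0 and 0 scaled counts.

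Several of the rises had reads at 16 cells and next to none at either neighbour. TMEM176A, a protein that spans the membrane, was at 51.7, 70.6 and 126 scaled counts at 16 cells and at 0 in all 6 neighbour libraries, but not in oocytes, where its means were 15.2 and 17.4. ESX1, a homeobox gene of placenta and testis, was at 83.1, 11.3 and 66.8 with 0 in all 6 neighbour libraries. C6H4ORF31 was at 3.37, 102 and 115, also with 0 in all 6, and the first of these values is 3 reads. IFI27, named for its induction by interferon, was at 38.2, 87.5 and 113, with at most 3.94 in any neighbour library. No ratio is given for these, since a neighbour group had 3 reads or fewer. The smaller differences were 5.26, 4.41, 4.38 and 4.44 in this order, and limma's larger adjusted p lay between 1.3e-04 and 0.0011.

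CNRIP1, which binds the tail of the cannabinoid receptor CB1, was at 89.9, 133 and 301 scaled counts at 16 cells. It reached at most 13.1 in any 8-cell and 7.33 in any blastocyst library, 33.9-fold and 43-fold below (adjusted p 0.0015 and 0.0012). USH1C, the scaffold protein harmonin, was at 113, 229 and 126, against 7.13, 0 and 11.8 at 8 cells and 0, 4.38 and 2.9 in blastocysts. The 3 16-cell pools were close to one another, and the mean was 24.7-fold and 64.3-fold above the neighbours (adjusted p 1.4e-04 and 2.1e-05). USH1C, CYP1B1 and H2BC1 had means of 0 in GV, MII and 4-cell libraries alike.

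**Figure D2:**
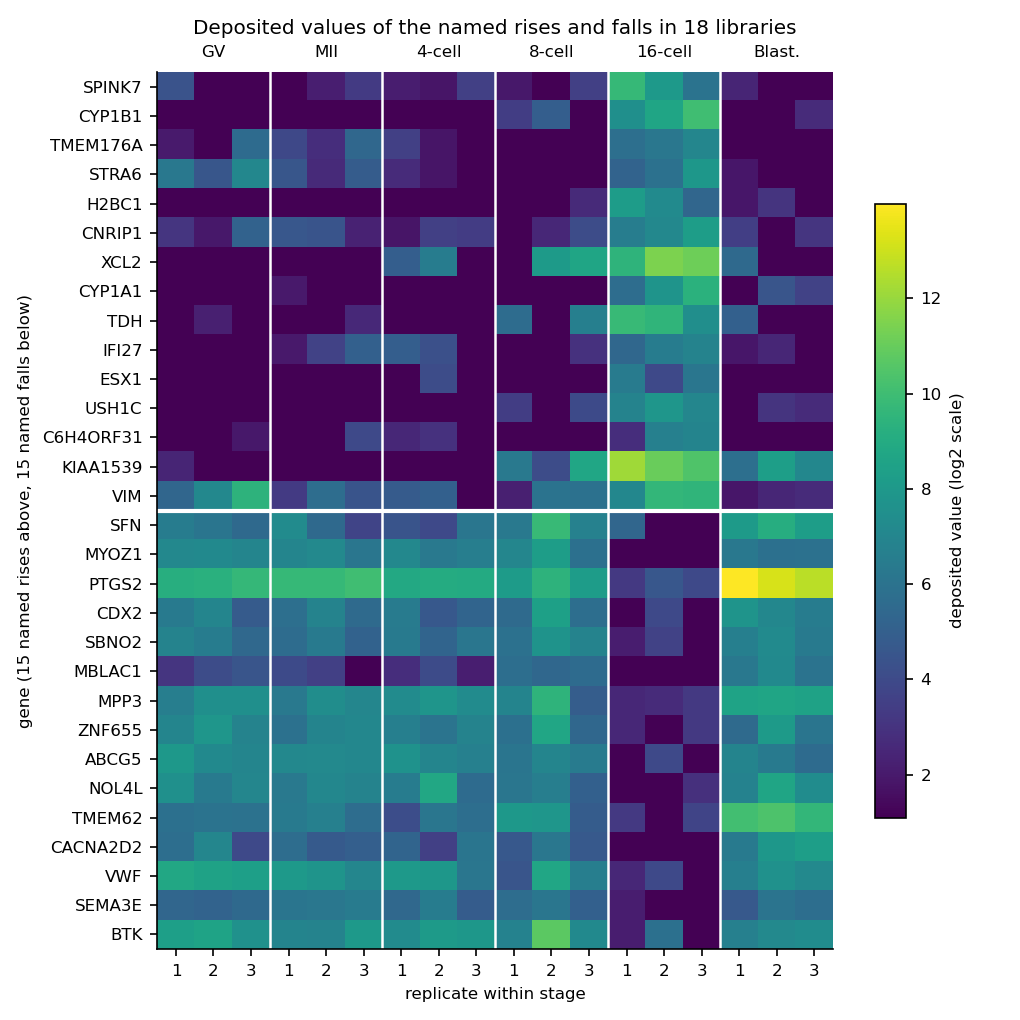
Deposited log2-like values of the 15 largest rises and the 15 largest falls (rows) in all 18 libraries (columns, ordered by stage and replicate), with darker or lighter colour for the value on the scale bar. The 16-cell columns stand out as high for the upper 15 genes and low for the lower 15, with visible differences between the 3 16-cell replicates, such as for SPINK7 and C6H4ORF31.

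Genes of retinoid handling and of the aryl hydrocarbon response stood among the largest rises. Retinol is taken up by the receptor STRA6 and oxidised to retinoic acid, which CYP26A1 degrades, and CYP1A1 and CYP1B1 are monooxygenases best known as targets of the aryl hydrocarbon receptor that also oxidise retinoids. CYP1B1 was at 181, 407 and 1043 scaled counts at 16 cells, against 7.13, 26.7 and 0 at 8 cells and 0, 0 and 2.9 in blastocysts. The mean was 48.2-fold above the 8-cell mean, with differences of 5.58 ± 0.84 (SE) and 7.12 (adjusted p 6.8e-05 and 1.8e-06). CYP1A1 was at 48.3, 212 and 638, at 0 in all 8-cell libraries and at 0, 18.6 and 8.71 in blastocysts, 32.9-fold above the blastocyst mean (adjusted p 1.5e-05 and 3.2e-04). Both genes were lowest in 16-cell replicate 1 and highest in replicate 3.

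STRA6 was at 32.6, 56.5 and 238 scaled counts at 16 cells and had 1 read in the 6 neighbour libraries, at 0.667 in blastocyst replicate 1 (adjusted p 1.7e-04 and 1.8e-04). It was also present in GV oocytes, with a mean of 73.2, and fell to 1.13 by the mean of the 4-cell libraries. RARRES2, the secreted protein chemerin, first found as a retinoid-responsive gene, was at 110, 104 and 57.5 at 16 cells, at 0 in all 8-cell libraries and at 8.66, 5.48 and 0 in blastocysts (adjusted p 6.1e-05 and 9.2e-04). CYP26A1 was at 1539, 220 and 462, against 52, 2.29 and 185 at 8 cells and 0, 20.8 and 0 in blastocysts. Its means were 9.28-fold and 107-fold above the neighbours (adjusted p 0.018 and 1.4e-04), and the call was lost without the 8-cell replicate 2 or the 16-cell replicate 1 (larger p 0.079 to 0.13).

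Other genes of the same pathway were lower. Of 32 tested members of a list of both pathways, written after the values were seen, 6 (18.8%) were higher than both neighbours and 4 (12.5%) lower. The lower ones were the retinal reductases RDH12 and RDH14, the retinal dehydrogenase ALDH1A1 and the retinoic acid receptor RARA. RDH12 was at 1.12, 0 and 0 scaled counts at 16 cells, against 117, 120 and 42 at 8 cells and 18, 46 and 8.71 in blastocysts (adjusted p 6.1e-05 and 0.0026). ALDH1A1 was at 0, 56.5 and 102, against 875, 1222 and 532 at 8 cells and 113, 117 and 147 in blastocysts. It stood 16.6-fold below the 8-cell mean but 2.38-fold below the blastocyst mean (adjusted p 2.6e-04 and 0.044). Its call was lost without 8-cell replicate 1 or 3, 16-cell replicate 1 or any of the 3 blastocyst replicates (larger p 0.051 to 0.36). RDH14 was at 25.8, 2.82 and 9.28, with overlap with the 8-cell 113, 292 and 17.1, and was lost without 8-cell or 16-cell replicate 2 (larger p 0.063 to 0.097). RARA was at 24.7, 11.3 and 13, against 64.9, 65.7 and 68.2 and 39.3, 95.3 and 36.8. The RARA call was lost under 12 of the 19 alternatives, among them the fits without 8-cell replicate 1, 16-cell replicate 2 or 3 or blastocyst replicate 1 or 2 (larger p 0.053 to 0.19), and with a replicate block (0.056).

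VIM, which encodes the intermediate filament protein vimentin of mesenchymal and cumulus cells, was at 129, 802 and 726 scaled counts at 16 cells. It was at 1.43, 60.3 and 55.1 at 8 cells and 0.667, 2.19 and 2.9 in blastocysts, so the 16-cell mean was 14.2-fold and 288-fold above the neighbours (adjusted p 0.015 and 3.7e-04). The call was lost without the 8-cell replicate 1 or the 16-cell replicate 2 or 3 (larger p 0.055 to 0.098). POSTN, TAGLN and CDH11, also typical of fibroblasts, were called too, each with 0 reads in 16-cell replicate 1. POSTN, a matrix protein, was at 0, 48 and 1774, TAGLN, an actin-binding protein of contractile cells, at 0, 429 and 96.5, and CDH11, a mesenchymal cadherin, at 0, 36.7 and 148. In the neighbour libraries these genes reached at most 7.67, 4.58 and 1.31. All 3 calls were lost without 16-cell replicate 2 or 3 or blastocyst replicate 1 or 3. The POSTN call was also lost without 8-cell replicate 2 or 3 (larger p 0.066 to 0.32), the TAGLN call without 8-cell replicate 1 or 3 or blastocyst replicate 2 (0.067 to 0.29), and the CDH11 call without 8-cell replicate 1 or 2 or blastocyst replicate 2 (0.059 to 0.2).

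Over 21 tested fibroblast markers, a list written after the values were seen, 4 (19%) were higher than both neighbours and 0 lower. Against the mean of both neighbours 5 were called higher and 0 lower, and the median difference was 1.63. LUM and COL3A1, matrix genes of fibroblasts, were at 0, 1700 and 2138 and at 0, 110 and 750 scaled counts at 16 cells and were not called. The summed level of the list was 3918, 8823 and 13064 at 16 cells, against 1641 to 4398 at 8 cells and 4754 to 5563 in blastocysts. Replicate 1 thus lay within the range of the neighbours and replicates 2 and 3 above it, and FBLN1 was at 0 in all 16-cell libraries. Among 26 tested markers of cumulus and granulosa cells, the cells that surround the oocyte, 2 (7.69%) were higher than both neighbours, VIM and AMH, and 1 (3.85%), PTGS2, was lower. AMH, the hormone of granulosa cells, was at 5.62, 42.4 and 13 at 16 cells and at most 2.62 elsewhere in the neighbour stages, and its call was lost without 8-cell replicate 1 or 16-cell replicate 2 (larger p 0.052). The summed cumulus list was 1807, 4444 and 8081 at 16 cells, 3617 to 6029 at 8 cells and 8261 to 19235 in blastocysts. In blastocysts PTGS2, also on the trophectoderm list, was at 16265, 9339 and 6412 of the sums of 19235, 11908 and 8261. At 16 cells it was at 5.62, 19.8 and 11.1. Against the mean of both neighbours 9 of the 26 were called higher and 3 lower. The median difference from that mean was 1.18, and -0.13 over all genes. FSHR, INHA, NR5A1 and PTX3, also on this list and picked with their values known, were at 0 in 16-cell replicates 1 and 2. AMH and VIM of the same list were called higher, as given above.

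In 16-cell replicate 3 FSHR, INHA, NR5A1 and PTX3 were at 5.57, 18.6, 1.86 and 20.4 scaled counts, that is at 1 to 11 reads. Of 14 tested endothelial and blood markers 1 was higher than both neighbours, CDH5, and 1 lower, VWF (7.14% each). Against the mean of both neighbours 1 was called higher and 4 lower, and the median difference was -0.22. PECAM1, CD14, CD3E and ITGAM were at 0 in all 3 16-cell libraries, and the summed level was 578, 599 and 642, against 1218 to 2220 at 8 cells and 673 to 1450 in blastocysts. The part of other cells in the values of VIM, POSTN, TAGLN, CDH11 and AMH was not tested. Of the 15 largest rises, CYP1A1, CYP1B1, STRA6, TMEM176A, CNRIP1, IFI27 and C6H4ORF31 were lowest in 16-cell replicate 1 and highest in replicate 3. COL3A1 and CDH11 had the same order. So had the 16-cell libraries as a whole, with reads in 11970, 12903 and 14146 genes and median deposited values of 3.038, 4.392 and 4.615. The share of all genes with this order was not counted, and its part in the level of these genes was not tested.

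**Figure D3:**
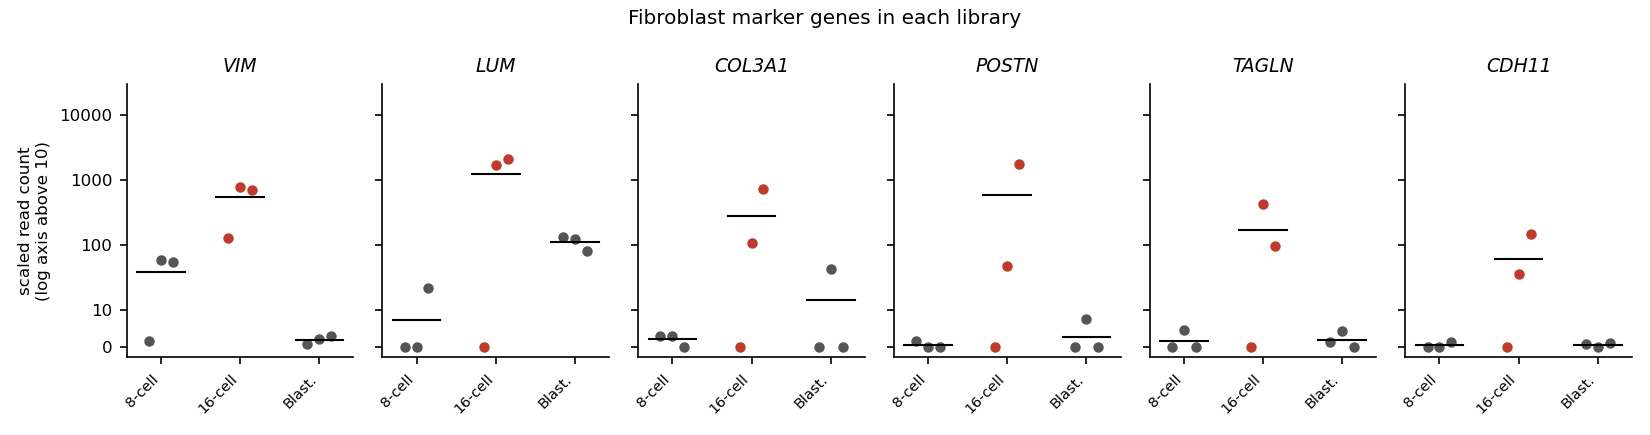
Scaled counts of 6 genes typical of fibroblasts in each library of the 8-cell, 16-cell and blastocyst stages (1 panel per gene, 1 point per library, symmetric log axis, bars at the stage means). Except for VIM, at 129, the genes shown have 0 reads in 16-cell replicate 1, and their high values come from 16-cell replicates 2 and 3.

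A few transcription factors of genome activation were higher at 16 cells than at both neighbours. Of 37 tested genes of this list 3 (8.11%) were higher than both neighbours, DUXA, ARGFX and KLF3, and 1 (2.7%), MYCN, was lower. Against the blastocyst alone 19 of the 37 were higher and 3 lower, where 13.1% and 18.2% of all genes were. Against the 8-cell embryo 6 were higher and 7 lower, where 14.8% and 16.3% of all genes were. The median difference was -0.13 from the 8-cell embryo and 1.45 from the blastocyst, where the medians over all genes were 0.00 and -0.18.

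ARGFX, a homeobox gene of the PRD-like family that is active in early human and bovine embryos, was at 13807, 7968 and 5104 scaled counts at 16 cells. It was at 2018, 338 and 1369 at 8 cells and 170, 274 and 287 in blastocysts. No libraries overlapped, and the means were 7.22-fold and 36.8-fold apart (differences of 3.07 ± 0.84 (SE), adjusted p 0.0086, and 5.09, adjusted p 9.3e-05). Without the 8-cell replicate 2 the larger p was 0.06. DUXA, another PRD-like homeobox gene and one with close copies that may share its reads, was at 22781, 17251 and 9313, against 6562, 4816 and 5695 at 8 cells and 26.7, 83.3 and 31 in blastocysts. It was 2.89-fold above the 8-cell mean (adjusted p 0.045) and 350-fold above the blastocyst mean (adjusted p 4.3e-10). The first of these calls was lost without any 1 of the 8-cell replicates or 16-cell replicate 1 or 2 (larger p 0.077 to 0.16).

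KLF3, a Krüppel-like repressor, was at 1574, 853 and 1470 scaled counts at 16 cells, 511, 250 and 616 at 8 cells and 345, 248 and 288 in blastocysts (2.83-fold and 4.42-fold, adjusted p 0.044 and 0.0074). The call was lost in 6 of the 9 fits without a library, those without 8-cell replicate 1 or 2, 16-cell replicate 1 or 3 or blastocyst replicate 1 or 3 (larger p 0.052 to 0.18). The proto-oncogene MYCN was lower, at 12.4, 50.8 and 63.1, against 301, 65.7 and 231 at 8 cells and 523, 295 and 355 in blastocysts (4.73-fold and 9.29-fold below, adjusted p 0.045 and 0.0029). This was lost without 8-cell replicate 1 or 3, 16-cell replicate 1 or blastocyst replicate 3 (larger p 0.052 to 0.17), and with a replicate block (0.05). KLF17, a Krüppel-like factor of genome activation, did not join them: its 6843, 8801 and 6151 at 16 cells overlapped the 7215, 7791 and 10364 at 8 cells (difference -0.22, adjusted p 0.81), with 128, 127 and 171 in blastocysts. ZSCAN4, a zinc finger gene of the same wave with close copies, was at 2035, 827 and 531, against 2743, 3448 and 3069 at 8 cells (difference -1.67, adjusted p 0.18) and 0, 12.1 and 4.84 in blastocysts.

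NANOG, the homeobox factor of pluripotent cells, was the 1 gene of 26 tested pluripotency genes that was higher than both neighbours (3.85%), and 0 were lower. Its level was 1847, 1858 and 906 scaled counts at 16 cells, 193, 9.16 and 387 at 8 cells and 316, 86.5 and 102 in blastocysts. All 16-cell pools lay above the others, 7.82-fold and 9.15-fold by the means. The differences were 3.87 ± 1.02 (SE, adjusted p 0.0064) and 3.33 (adjusted p 0.016), and without blastocyst replicate 2 or 3 the larger p was 0.059 to 0.071. Its partner POU5F1 increased over the 3 stages instead, from 152, 202 and 181 through 430, 463 and 522 to 1850, 3738 and 1735 (adjusted p 0.0092 and 1.2e-04). SOX2 was at 128, 147 and 139 at 16 cells, within the range of both neighbours (adjusted p 0.58 and 0.79).

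**Figure D4:**
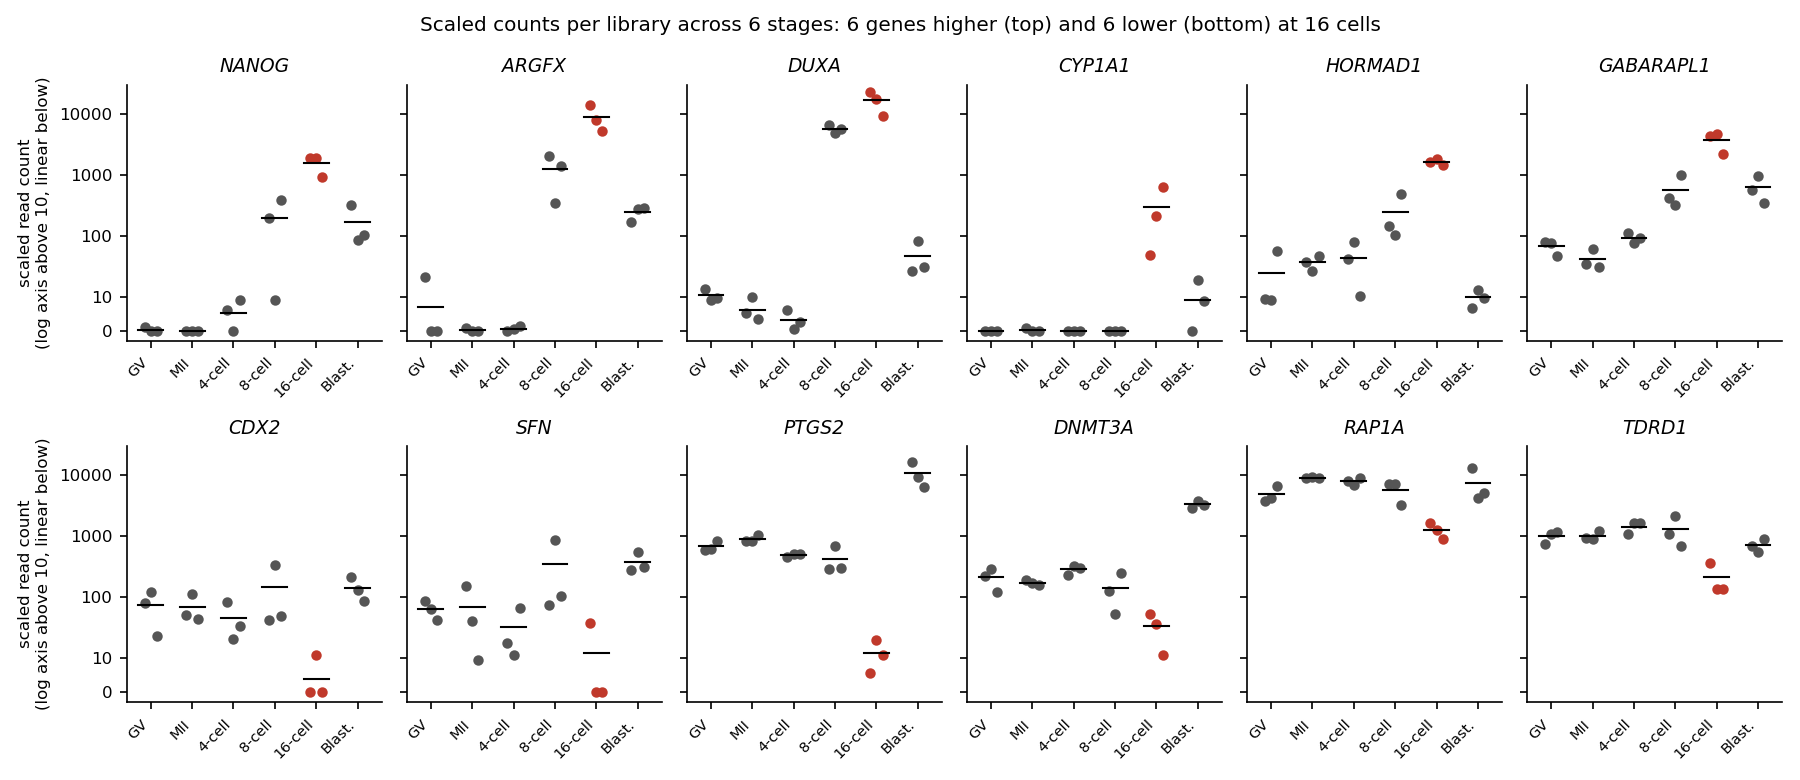
Scaled counts of 12 genes in every library of the 6 stages (1 panel per gene, 1 point per library, symmetric log axis, bars at the stage means). The upper 6 panels are genes higher at 16 cells than at both neighbours and the lower 6 genes lower than both; NANOG is at 906 to 1858 at 16 cells and CDX2 at 0 to 11.3.

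Some genes of ribosome building were higher at 16 cells than at both neighbours. Ribosomal RNA is transcribed and processed in the nucleolus, which becomes active in the bovine embryo around the time of genome activation. Of 93 tested genes of the list 12 (12.9%) were higher than both neighbours and 1 (1.08%), the helicase DDX10, was lower. Against the 8-cell embryo 35 were higher and 5 lower, and against the blastocyst 32 were higher and 1 lower. The median difference was 1.01 and 0.84. The 12 were NOP2, NOC3L, WDR3, UTP15, UTP20, RRP12, BRIX1, NOL6, NOL8, HEATR1, SDAD1 and POLR1C, which act in assembly and export of both subunits and in RNA polymerase I. Only BRIX1, NOL6 and NOL8 were called in all 9 fits without a library. NOP2 and UTP20 were called in 4 of the 9, and WDR3, HEATR1 and POLR1C in 5. NOC3L, UTP15 and SDAD1 were called in 6, and RRP12 in 7.

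NOL8, a nucleolar protein that binds GTPases, was at 3016, 2651 and 1856 scaled counts at 16 cells, against 232, 389 and 622 at 8 cells and 1021, 567 and 944 in blastocysts. The 3 stages did not overlap with 16 cells, and the ratios were 6.05 and 2.97 (adjusted p 2.4e-05 and 0.0019). BRIX1, a factor of the large subunit, was at 6172, 2970 and 2645, against 671, 619 and 805 and 2189, 571 and 1100 (5.63-fold and 3.05-fold, adjusted p 1.7e-04 and 0.0024). NOL6, a factor of the small subunit, was at 1878, 1776 and 1236, against 332, 455 and 710 and 195, 353 and 557 (3.27-fold and 4.43-fold, adjusted p 0.0038 and 3.9e-04). These 3 calls held with each library left out. POLR1C, a subunit shared by RNA polymerases I and III, was at 674, 977 and 436, against 111, 37.4 and 234 and 143, 283 and 147 (adjusted p 0.0045 and 0.04). That call was lost without 16-cell replicate 1 or 2 or blastocyst replicate 1 or 3 (larger p 0.078 to 0.13). DDX10 was at 206, 192 and 414, against 833, 950 and 543 and 480, 410 and 880, with overlap with the blastocyst libraries. DDX10 was lost without 16-cell replicate 1 or 2 or blastocyst replicate 3 (larger p 0.072 to 0.13).

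The ribosomal proteins themselves formed a step, not a peak. Of 78 tested, 73 were higher than at 8 cells and 0 lower, with a median difference of 2.50, but from the blastocyst the median difference was -0.22, with 2 higher and 3 lower. The 2 genes higher than both neighbours (2.56%) were RPL26 and FAU. RPL26 was at 4307, 3250 and 2281 scaled counts at 16 cells, 759, 599 and 882 at 8 cells and 2577, 1525 and 1036 in blastocysts, of which replicate 1 overlapped 16 cells, and FAU was 2.07-fold and 2.01-fold above its neighbours (adjusted p 0.027 and 0.033). Both have processed copies that may share reads. The RPL26 call was lost without 16-cell replicate 1 or 2 or blastocyst replicate 2 or 3 (larger p 0.079 to 0.19), and the FAU call without 8-cell replicate 1 or 2, 16-cell replicate 1 or 2 or blastocyst replicate 1 or 3 (larger p 0.064 to 0.12). Oxidative phosphorylation genes lay on a slope: of 77 tested 60 were higher than at 8 cells, 40 were lower than in blastocysts, and 0 were higher or lower than both. SDHB, a subunit of succinate dehydrogenase, was at 2540, 2973 and 1615 at 16 cells, against 351, 385 and 314 at 8 cells and 1755, 3016 and 1408 in blastocysts. UQCRH of complex III was at 633, 661 and 752, close to the 610, 774 and 459 of the 8-cell embryo, and at 5497, 3614 and 2994 in blastocysts.

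Translation factors gave 3 higher genes (6%) and 1 lower (2%) of 50 tested. EIF4G2, a scaffold of cap-independent initiation, was at 27209, 18869 and 16609 scaled counts at 16 cells, against 10768, 10531 and 11783 at 8 cells and 13349, 9178 and 11291 in blastocysts (1.89-fold and 1.85-fold, adjusted p 0.012 for both). Its call was lost without 16-cell replicate 1 or blastocyst replicate 2 (larger p 0.067 to 0.077). EIF6, which keeps the subunits apart, was at 21959, 16365 and 16702 and stood 1.85-fold and 2.29-fold above its neighbours, and ETF1, the release factor, was at 11804, 7770 and 9139 and stood 2.66-fold and 1.95-fold above. Both calls were lost without several libraries, EIF6 without 8-cell replicate 2, 16-cell replicate 1 or 3 or blastocyst replicate 2 (larger p 0.054 to 0.23) and ETF1 without 16-cell replicate 1 or 3 or any 1 blastocyst replicate (larger p 0.051 to 0.15). EIF4G3, a paralogue of the main initiation scaffold, was lower, at 23.6, 113 and 282, and overlapped the blastocyst libraries at 208, 277 and 612. This was lost without 16-cell replicate 1 or blastocyst replicate 3 (larger p 0.13 to 0.17). Of 21 aminoacyl-tRNA synthetase genes 0 were higher or lower than both: AIMP1 was at 2044, 2236 and 2019 at 16 cells, 145, 18.3 and 131 at 8 cells and 2431, 1088 and 1622 in blastocysts, and GARS1 stood at 415, 288 and 371, level with the 8-cell 413, 292 and 360 and below the blastocyst 2607, 2309 and 2413.

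Splicing factors gave 4 higher genes (6.67%) and 0 lower of 60 tested, SNRPB and SNRPD2 of the core ring of the small nuclear ribonucleoproteins, SF3B5 of the branch site complex and the coactivator SRRM1. SNRPB was at 2084, 2087 and 1652 scaled counts at 16 cells, against 359, 195 and 995 at 8 cells and 389, 848 and 378 in blastocysts (3.76-fold and 3.6-fold, adjusted p 0.0065 and 0.014). Without blastocyst replicate 1 or 3 its larger p was 0.059 to 0.061. SNRPD2 was at 3715, 3896 and 1366, 4.6-fold and 3.88-fold above its neighbours, and was lost without blastocyst replicate 3 (larger p 0.052) and when both libraries that stand apart were left out. SRRM1 was at 8400, 8259 and 6567, 1.97-fold and 2.61-fold above, and was lost without 8-cell replicate 2 (larger p 0.12). SF3B5 was at 6358, 3975 and 1208, so replicate 3 overlapped the 8-cell libraries at 1250, 590 and 1164. Its call was lost in 8 of the 9 fits without a library, all but the one without 16-cell replicate 3 (larger p 0.05 to 0.18).

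Enzymes that act on stored RNA were called in small number. Of 62 tested genes of RNA decay and poly(A) control 3 (4.84%) were higher than both neighbours and 2 (3.23%) lower, the latter below the share of all genes. TUT7, which adds uridines to short poly(A) tails and marks maternal RNA for decay, was at 36135, 26363 and 31476 scaled counts at 16 cells. It was at 14043, 7021 and 18269 at 8 cells and 751, 644 and 1100 in blastocysts, so it stood 2.39-fold and 37.7-fold above its neighbours (adjusted p 0.0031 and 2.5e-10). PATL1, a decapping activator, was at 5316, 5339 and 3849, against 904, 1445 and 1306 and 629, 976 and 627. The ratios were 3.97 and 6.5 (adjusted p 1.1e-04 and 1.8e-06), the 16-cell pools lay close together, and the TUT7 and PATL1 calls held with each library left out.

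PARN, the poly(A)-specific ribonuclease, and DICER1, which cuts microRNA precursors, were lower. PARN was at 138, 138 and 150 scaled counts at 16 cells, against 691, 1128 and 444 at 8 cells and 849, 757 and 789 in blastocysts (5.3-fold and 5.61-fold below, adjusted p 3.6e-05 and 7.1e-06). DICER1 was at 340, 333 and 364, against 1268, 1533 and 1457 and 798, 734 and 852 (4.1-fold and 2.3-fold below, adjusted p 1.1e-05 and 9.3e-04). For both genes the 16-cell libraries were nearly equal and the groups did not overlap. Oocyte genes as a group were on the way down: of 46 tested, 31 were lower than at 8 cells and 24 higher than in blastocysts. GDF9 and BMP15, growth factors of the oocyte, were at 743, 336 and 258 and at 5163, 6277 and 2431 at 16 cells, between 8-cell means 7.32-fold and 5.04-fold higher and blastocyst means 29.3-fold and 104-fold lower. The 1 oocyte gene higher than both neighbours (2.17%) was UCHL1, a ubiquitin hydrolase abundant in oocytes, at 157, 672 and 932, against 11.4, 57.3 and 53.8 at 8 cells and 64.7, 119 and 77.4 in blastocysts (adjusted p 1.4e-04 and 0.0036).

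Single genes of mitosis and of the checkpoint were higher at 16 cells, and single replication genes were lower. Of 65 tested cell cycle genes 5 (7.69%) were higher than both neighbours, CHEK1, ESPL1, CENPE, CDC20 and BUB1, and 1 (1.54%), CCND3, was lower. Against the 8-cell embryo 10 were higher and 12 lower, where 14.8% and 16.3% of all genes were. Against the blastocyst 24 were higher and 4 lower, where 13.1% and 18.2% of all genes were. CHEK1, the kinase of the DNA damage checkpoint, was at 2347, 2352 and 2975 scaled counts at 16 cells, against 866, 572 and 1028 at 8 cells and 1189, 385 and 1139 in blastocysts (3.11-fold and 2.83-fold, adjusted p 0.0026 and 0.0023). ESPL1, the separase that cuts cohesin at anaphase, was at 3574, 3809 and 4805, against 853, 417 and 3191 and 727, 974 and 1600 (adjusted p 0.0056 and 0.0049). Both held with each library left out. CENPE, a kinetochore motor, was at 7531, 3800 and 12689, where the lowest library overlapped the 8-cell range of 786 to 5292, and was lost without 8-cell replicate 2, 16-cell replicate 3 or blastocyst replicate 2 (larger p 0.055 to 0.16). CDC20, the activator of the anaphase-promoting complex, was at 4619, 6251 and 1871, also with overlap, and was lost without 8-cell replicate 1 or 2, 16-cell replicate 1 or 2 or blastocyst replicate 1 (larger p 0.06 to 0.11). CCND3, a cyclin of the G1 phase, was at 0, 2.82 and 35.3 and was lost in 7 of the 9 fits without a library (larger p 0.06 to 0.23), all but those without 8-cell replicate 3 or 16-cell replicate 3, and with a replicate block (0.052).

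Of 59 tested replication genes 4 (6.78%) were lower than both neighbours and 1 (1.69%) higher. GINS2, a subunit of the replicative helicase, was at 1.12, 133 and 68.7 scaled counts at 16 cells, against 588, 1263 and 600 at 8 cells and 435, 458 and 429 in blastocysts (12.1-fold and 6.53-fold below, adjusted p 2.0e-04 and 8.8e-04). ORC2 of the origin recognition complex was at 62.9, 110 and 243, 3.8-fold and 2.65-fold below its neighbours, and PRIM2, a primase subunit, at 89.9, 144 and 204, 4.71-fold and 2.86-fold below. DUT, which removes dUTP, was at 34.8, 16.9 and 31.6, against 155, 108 and 97.1 and 616, 429 and 230 (adjusted p 0.0016 and 1.7e-06). DBF4, the activator of the CDC7 kinase, was the higher one, at 3803, 1909 and 2108, against 636, 166 and 650 and 1275, 458 and 1217, and was lost without 16-cell replicate 1 or blastocyst replicate 2 (larger p 0.13 to 0.19).

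Histone genes that are expressed with replication, and their regulators, formed a list written after the values were seen; 7 of 28 tested members (25%) were higher than both neighbours and 0 lower. H2BC1, the testis-type H2B, was at 298, 150 and 37.1 scaled counts at 16 cells, against 0, 0 and 2.62 at 8 cells and 0.667, 4.38 and 0 in blastocysts (96-fold above the blastocyst mean, adjusted p 1.7e-05 and 1.6e-05). H2BC17 was at 280, 508 and 126, 7.82-fold and 6.41-fold above its neighbours, and was lost without 16-cell replicate 2 or blastocyst replicate 1 (larger p 0.053 to 0.073). H2BC12, at 3477, 7660 and 2660, was 3.4-fold and 4.97-fold above, and held with each library left out. NPAT, the activator of histone gene transcription, was at 2301, 1341 and 2378, against 438, 302 and 1318 and 731, 400 and 909 (adjusted p 0.006 and 0.012), and was lost without blastocyst replicate 2 (larger p 0.078). Histone genes have near-identical copies and their RNA lacks a poly(A) tail in dividing cells, so which copy the reads came from is uncertain.

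Of 56 tested histone-modifying enzymes 4 (7.14%) were higher than both neighbours and 2 (3.57%) lower. SETDB2, a methyltransferase of histone H3, was at 1761, 1158 and 1431 scaled counts at 16 cells, against 495, 399 and 724 and 301, 204 and 253 (2.69-fold and 5.75-fold, adjusted p 0.0061 and 3.4e-05). EZH2, the methyltransferase of the Polycomb complex, was at 3590, 2287 and 2227, against 1934, 1491 and 1253 and 1410, 1123 and 957, 1.73-fold and 2.32-fold above. Its call was lost without 8-cell replicate 2 or 3 or 16-cell replicate 1 (larger p 0.075 to 0.15). PRMT5, an arginine methyltransferase, was at 3854, 2089 and 2042 and was lost without 16-cell replicate 1 or blastocyst replicate 2 or 3 (larger p 0.052 to 0.15). KDM7A, a demethylase, was at 322, 568 and 1223, against 237, 334 and 129 and 109, 127 and 256, so replicate 1 overlapped the 8-cell libraries (adjusted p 0.028 and 0.0041). This was lost without 8-cell replicate 1 or 3 or 16-cell replicate 3 (larger p 0.051 to 0.16). The demethylases KDM4B and KDM6B were lower, at 0, 11.3 and 0 and at 0, 2.82 and 40.8, against 19.7 to 59.2 and 49.6 to 238 at 8 cells and 56.1 to 90.9 and 42 to 188 in blastocysts. Their larger adjusted p was 0.0038 for each and they held with each library left out.

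Of the DNA methylation genes, 21 tested, 1 was lower than both neighbours (4.76%) and 0 higher. DNMT3A, which lays down new methylation, was at 53.9, 36.7 and 11.1 scaled counts at 16 cells, against 125, 52.7 and 251 at 8 cells and 2932, 3704 and 3274 in blastocysts. The 16-cell and 8-cell libraries overlapped (4.21-fold by the means, adjusted p 0.0096), while the blastocyst stood 97.4-fold higher (adjusted p 1.1e-08). Without 8-cell replicate 3 or 16-cell replicate 3 the larger p was 0.059 to 0.061. DNMT3B, its paralogue, had a similar order, at 494, 98.8 and 96.5, against 311, 1134 and 227 and 1572, 2506 and 2456, but was not called against the 8-cell embryo (adjusted p 0.068). It was called lower than both under 5 of the 19 alternatives, among them the fits without 8-cell replicate 3 or 16-cell replicate 1. DNMT1, the maintenance enzyme, was at 578, 1358 and 616, below the 2742, 3322 and 1795 of the 8-cell embryo (adjusted p 4.5e-04) and not called against the 565, 501 and 482 of the blastocyst (adjusted p 0.16).

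Genes known from meiosis and the germ line were called in both directions. In a list of 46 tested, also written after the values were seen and so no independent evidence, 12 (26.1%) were higher than both neighbours and 4 (8.7%) lower. HORMAD1, a protein of the meiotic chromosome axis, was at 1601, 1787 and 1457 scaled counts at 16 cells, against 143, 101 and 482 at 8 cells and 6.67, 13.1 and 9.68 in blastocysts. The 16-cell libraries were close together and 6.68-fold and 164-fold above the neighbours (adjusted p 0.0036 and 4.8e-07). TEX15, needed for meiotic recombination and transposon silencing in the mouse testis, was at 1372, 1544 and 1756, against 223, 35.1 and 622 and 69.3, 99.7 and 58.1 (5.31-fold and 20.6-fold, adjusted p 0.0046 and 2.5e-04). SPDYC, of the Speedy family of CDK activators, was at 10421, 7666 and 6739, against 1771, 1954 and 3506 and 148, 950 and 295 (3.43-fold and 17.8-fold, adjusted p 0.0041 and 1.9e-07). These 3 calls held with each library left out.

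TEX101, a surface protein of germ cells, was at 11.2, 152 and 20.4 scaled counts at 16 cells with at most 5.25 in any neighbour library (adjusted p 0.0026 and 0.0011). PRAME, a cancer-testis gene, was at 118, 313 and 92.8, against 0, 38.9 and 44.6 and 5.33, 0 and 11.6, and was lost without 8-cell replicate 1 or 16-cell replicate 2 (larger p 0.057 to 0.12). SYCP1, of the synaptonemal complex, was at 422, 200 and 484, overlapping the 8-cell 118, 26 and 238, and 155-fold above the blastocyst. It was lost without 8-cell replicate 1 or 2, 16-cell replicate 1 or 3 or blastocyst replicate 1 (larger p 0.056 to 0.28). Not all germ line genes rose: TDRD1, a tudor protein of the piRNA pathway, was at 364, 138 and 134, against 1084, 2180 and 693 and 689, 547 and 913 (6.22-fold and 3.38-fold below, adjusted p 1.1e-04 and 0.0016). RAD21L1, a meiotic cohesin subunit, was at 0, 0 and 1.86, against 39.2, 14.5 and 64.3 and 36.7, 17.5 and 35.8 (adjusted p 7.8e-04 and 0.001).

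Of 27 tested genes of autophagy, a list written after the values were seen, 4 (14.8%) were higher than both neighbours and 0 lower. GABARAPL1, a member of the ATG8 family that coats the autophagosome, was at 4283, 4690 and 2164 scaled counts at 16 cells, against 412, 314 and 978 at 8 cells and 559, 956 and 345 in blastocysts. It stood 6.54-fold and 5.99-fold above them (adjusted p 2.3e-04 and 3.0e-04), and the call held with each library left out. MAP1LC3C, another ATG8 protein, was at 5.62, 50.8 and 61.2 with at most 1.53 elsewhere in the neighbour libraries (adjusted p 0.0071 and 0.0023). MAP1LC3B was at 1658, 545 and 731, 2.9-fold and 2.81-fold above, and was lost without 8-cell replicate 2, 16-cell replicate 1 or 3 or any 1 blastocyst replicate (larger p 0.052 to 0.22). ULK1, the kinase that starts autophagy, was at 987, 2233 and 1396, 3.13-fold and 5.29-fold above, and was lost without 8-cell replicate 2 or 16-cell replicate 2 (larger p 0.079 to 0.11).

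Among 21 amino acid transporter genes 1 was higher and 1 lower than both neighbours (4.76% each). SLC1A5, which imports glutamine, was at 12710, 14820 and 9870 scaled counts at 16 cells, against 3340, 2484 and 5565 at 8 cells and 593, 902 and 870 in blastocysts (3.28-fold and 15.8-fold, adjusted p 1.6e-04 and 4.1e-09). The groups did not overlap and the call held with each library left out. SLC7A7, an exchanger of cationic amino acids, was lower, at 8.99, 147 and 221, and was lost without 8-cell replicate 1 or 2 or 16-cell replicate 1 (larger p 0.051 to 0.13). Of 36 genes of nucleotide, one-carbon and polyamine synthesis 2 (5.56%) were higher, PPAT and GART, both of purine synthesis, and 5 (13.9%) lower. PPAT, the first enzyme of the pathway, was at 4981, 2462 and 2971, against 1094, 479 and 1902 and 667, 412 and 727 (3-fold and 5.77-fold), and was lost without 8-cell replicate 2 or 16-cell replicate 1 (larger p 0.058 to 0.091). GART was at 3831, 3789 and 3998, 2.45-fold and 5.75-fold above, but against an 8-cell range of 625 to 2915 its call (adjusted p 0.047) was lost in 8 of the 9 fits without a library, all but the one without 8-cell replicate 3 (larger p 0.058 to 0.23).

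On the falling side of that list stood serine synthesis and folate genes. PSPH, the last step of serine synthesis, was at 3.37, 50.8 and 85.4 scaled counts at 16 cells, against 485, 444 and 207 at 8 cells and 1176, 595 and 702 in blastocysts (8.15-fold and 17.7-fold below, adjusted p 3.1e-04 and 9.5e-06). PSAT1, the step before PSPH, was at 0, 98.8 and 14.8 and overlapped the 8-cell 190, 96.2 and 35.4, and its call was lost in 7 of 9 fits without a library, all but those without 8-cell replicate 3 or 16-cell replicate 2 (larger p 0.058 to 0.28). MTHFD2, a mitochondrial folate enzyme, was at 130, 84.7 and 3.71, also with overlap, and was lost in 6 of 9 fits, those without 8-cell replicate 1 or 2, 16-cell replicate 3 or any 1 blastocyst replicate (larger p 0.057 to 0.33).

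Of 70 tested genes of growth factor pathways 2 (2.86%) were higher than both neighbours, near the share of all genes, and these were both type II activin receptors. ACVR2A was at 1176, 1011 and 1331 scaled counts at 16 cells, against 396, 533 and 436 at 8 cells and 341, 255 and 419 in blastocysts (2.58-fold and 3.47-fold, adjusted p 0.0075 and 7.3e-04), and held with each library left out. ACVR2B was at 1219, 836 and 681, against 241, 95.4 and 471 and 138, 298 and 238 (3.39-fold and 4.06-fold, adjusted p 0.029 and 0.025), and was lost without 8-cell replicate 1 or 2, 16-cell replicate 1 or 2 or blastocyst replicate 1 or 3 (larger p 0.052 to 0.16). The 7 lower genes (10%) were the ligands PDGFA and TGFB2, the receptors KIT and BMPR1A, the mediator SMAD1, and the Wnt pathway inhibitors SFRP1 and AXIN2.

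KIT, the stem cell factor receptor, was at 592, 760 and 1069 scaled counts at 16 cells, against 3353, 4556 and 2688 at 8 cells and 5607, 5674 and 6032 in blastocysts (4.38-fold and 7.15-fold below, adjusted p 1.1e-05 and 6.6e-08). PDGFA, a ligand of the PDGF receptor of the hypoblast, was at 15.7, 22.6 and 37.1, against 495, 343 and 160 and 316, 291 and 152 (13.2-fold and 10.1-fold below, adjusted p 3.4e-05 and 4.6e-05). BMPR1A, a type I receptor for bone morphogenetic proteins, was at 134, 67.8 and 282, against 674, 1234 and 598 and 733, 491 and 830 (5.18-fold and 4.25-fold below, adjusted p 5.2e-04 and 0.001). All 3 had no overlap and held with each library left out. TGFB2 was at 1.12, 11.3 and 27.8 and was lost without 16-cell replicate 1 or 2 or any 1 blastocyst replicate (larger p 0.052 to 0.2), and with a replicate block (0.051).

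Several trophectoderm and epithelial genes were lower at 16 cells than at both neighbours. Of 46 tested trophectoderm genes 10 (21.7%) were lower than both neighbours and 0 higher, and of 48 tested genes of epithelial junctions and polarity 12 (25%) were lower and 0 higher. CLDN10 is in both lists. Median differences were -0.31 from the 8-cell embryo and -3.39 from the blastocyst for the trophectoderm list, and -0.22 and -2.65 for the epithelial list, so as groups they differed mainly from the blastocyst. Against the 8-cell embryo 11 and 13 members were lower, and 7 and 11 higher, where 16.3% of all genes were lower and 14.8% higher.

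CDX2, the homeobox factor that maintains the trophectoderm, was at 0, 11.3 and 0 scaled counts at 16 cells, against 42.8, 341 and 49.9 at 8 cells and 213, 130 and 88.1 in blastocysts. It was 38.4-fold and 38.2-fold below the neighbour means, with differences of -4.54 ± 0.91 (SE, adjusted p 8.1e-04) and -5.08 (adjusted p 2.1e-04). It had reads in the oocytes too, with means of 74.4 in GV oocytes, 69.2 in MII oocytes and 46 at 4 cells. PTGS2, the inducible prostaglandin synthase, was at 5.62, 19.8 and 11.1, against 285, 679 and 297 at 8 cells and 16265, 9339 and 6412 in blastocysts (34.5-fold and 877-fold below, adjusted p 5.7e-07 and 4.1e-12). Its oocyte means were 680 and 911. SFN, the 14-3-3 protein of epithelia, was at 37.1, 0 and 0, against 75.6, 871 and 104 and 275, 547 and 310 (28.3-fold and 30.5-fold below, adjusted p 0.0015 and 2.7e-04). In all 3 genes every 16-cell library lay below every neighbour library.

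GATA2, a GATA factor of the trophoblast, was at 116, 53.6 and 20.4 scaled counts at 16 cells, against 359, 490 and 337 and 1150, 910 and 979 (6.25-fold and 16-fold below, adjusted p 9.5e-05 and 4.3e-07). EZR, the linker between membrane and actin in microvilli, was at 1582, 816 and 444, against 3224, 3775 and 2832 and 18829, 10061 and 10784 (3.46-fold and 14-fold below). TEAD1, a partner of YAP1, was at 215, 158 and 160, 2.94-fold and 2.53-fold below its neighbours. KRT7, a keratin, was at 0 in all 3, against 57, 7.64 and 2.62 and 142, 162 and 106, and was lost without 8-cell replicate 1 or 16-cell replicate 2 or 3 (larger p 0.052 to 0.15). Other trophectoderm factors were not called lower than both. GATA3 was at 2.25, 110 and 295, on both sides of the 20.7, 147 and 150 of the 8-cell embryo (adjusted p 0.74), and below the 691, 1042 and 927 of blastocysts (adjusted p 0.0039). TEAD4 was at 296, 302 and 102, with 0 in all 8-cell libraries (adjusted p 1.6e-06) and 237, 446 and 295 in blastocysts (adjusted p 0.56). TFAP2C was at 7561, 4848 and 4206 and not called against either neighbour (adjusted p 0.54 and 0.37).

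Among junction genes, CLDN10 of the tight junction was at 34.8, 150 and 104 scaled counts at 16 cells, against 405, 2410 and 371 at 8 cells and 595, 1120 and 639 in blastocysts (11-fold and 8.16-fold below, adjusted p 3.1e-04 and 1.7e-04). OCLN, the tight junction protein occludin, was at 97.8, 522 and 254, against 3391, 3004 and 1335 and 1785, 1310 and 1638 (8.84-fold and 5.41-fold below, adjusted p 1.5e-05 and 5.5e-05). PERP of the desmosome was at 0, 0 and 7.42, against 44.2, 16.8 and 42 and 1118, 852 and 626 (13.9-fold and 350-fold below, adjusted p 0.0022 and 1.0e-07). CRB3, of the apical polarity complex, was at 1.12, 5.65 and 0, against 64.9, 48.1 and 74.8 and 115, 203 and 72.6 (adjusted p 5.7e-04 and 5.0e-05). CTNNA1, which ties cadherins to actin, was at 339, 446 and 475, against 992, 1399 and 907 and 6447, 4974 and 5301 (2.62-fold and 13.3-fold below, adjusted p 0.0011 and 6.1e-09). None of these groups overlapped, and the 5 calls held with each library left out. RAB25, a GTPase of epithelial recycling, was at 0 in all 3 16-cell libraries, as in 8-cell replicate 2 (32.1, 0 and 43.3 at 8 cells), and was lost without 8-cell replicate 1 or 3 (larger p 0.11 to 0.12).

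E-cadherin did not follow this course. CDH1, the cadherin of compaction, was at 826, 779 and 2173 scaled counts at 16 cells, above the 652, 328 and 570 of the 8-cell embryo (adjusted p 0.037) and below the 2623, 3096 and 7146 of blastocysts (adjusted p 0.0022). In the hypoblast list of 19 tested, 1 gene (5.26%) was lower than both, LAMC1, a laminin chain, at 1001, 449 and 741, against 2035, 1881 and 2045 and 1320, 1974 and 1563 (adjusted p 5.1e-04 and 0.0029). GATA6, the hypoblast factor, increased from 140, 130 and 266 to 1319, 1118 and 2032 (adjusted p 7.9e-04), with 4124, 3234 and 4415 in blastocysts (adjusted p 0.082). Of 16 genes of the blastocoel pump and water channels 1 (6.25%) was higher than both and 0 lower: AQP11, an aquaporin of intracellular membranes, at 1143, 472 and 509, against 42.8, 31.3 and 121 and 189, 98.6 and 109. It was lost without 16-cell replicate 1 or blastocyst replicate 2 or 3 (larger p 0.09 to 0.12).

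**Figure D5:**
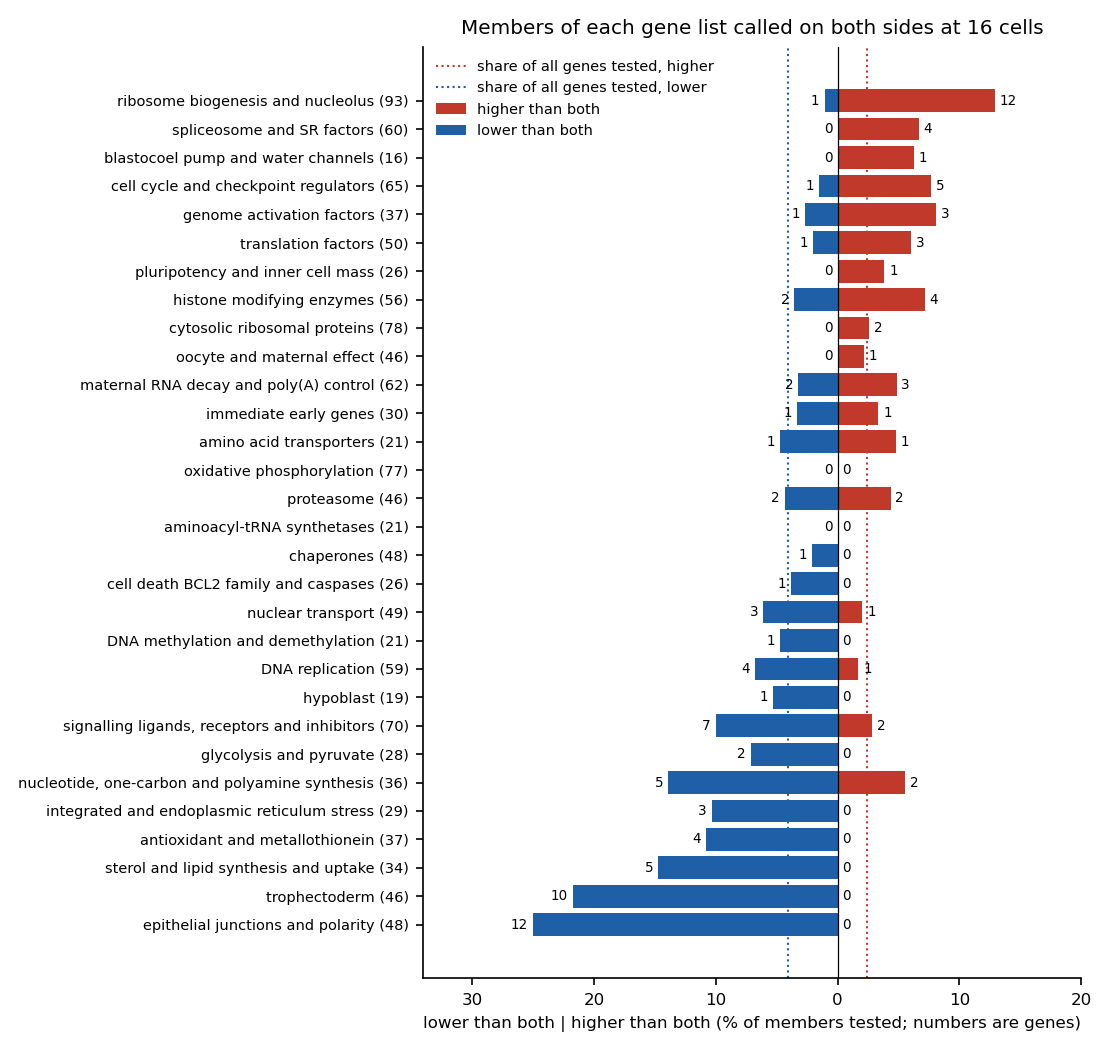
Percentage of tested members of 30 gene lists (all but the cell type markers and the lists written after the values were seen) that were higher (red) or lower (blue) at 16 cells than at both neighbours, with vertical lines at the percentages of all genes tested, 2.40 and 4.06. The bars reach 12.9% higher for ribosome biogenesis, and 25%, 21.7% and 14.7% lower for the epithelial, trophectoderm and sterol lists. The lists shown were also chosen with earlier results of these data known, so a share above the lines is no independent evidence.

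The largest falls outside those lists had few reads at 16 cells and moderate levels elsewhere. MYOZ1, which binds calcineurin, was at 0 in all 3 16-cell libraries, against 125, 310 and 53.8 scaled counts at 8 cells and 72.7, 54.8 and 55.2 in blastocysts (differences of -5.96 ± 0.63 (SE) and -4.92, adjusted p 2.6e-06 and 5.5e-06). Its oocyte and 4-cell means were 134, 110 and 101, so the 16-cell stage was the only one of the 6 without a read. MBLAC1, a metallo-beta-lactamase domain protein, and CACNA2D2, a subunit of voltage-gated calcium channels, were also at 0 in all 3, with neighbour levels of 38.2 to 147 and 21.4 to 321. MPP3, a membrane scaffold, was at 2.25, 2.82 and 5.57, against 118, 716 and 26.2 and 381, 403 and 364 (80.9-fold and 108-fold below, adjusted p 2.5e-04 and 6.4e-06). TMEM62 was at 5.62, 0 and 9.28, against 242, 231 and 24.9 and 1082, 1315 and 779 (33.4-fold and 213-fold below).

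Further members of the 15 largest falls were SBNO2, a transcriptional coregulator, at 1.12, 8.47 and 0 scaled counts, ZNF655, a zinc finger gene, at 2.25, 0 and 5.57, ABCG5, a sterol exporter, at 0, 11.3 and 0, and NOL4L at 0, 0 and 3.71. VWF, the von Willebrand factor, was at 2.25, 11.3 and 0, and SEMA3E, a semaphorin, at 1.12, 0 and 0. BTK, a tyrosine kinase of B cells, was at 1.12, 53.6 and 0, against 107, 1726 and 146 at 8 cells and 99.3, 138 and 164 in blastocysts (36.1-fold and 7.32-fold below, adjusted p 3.9e-04 and 0.0027). The lowest neighbour library of these 7 genes was at 18.5 scaled counts, that of VWF at 8 cells. None of the 15 calls was lost when a library was left out.

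Of the glycolysis, sterol and antioxidant genes some were lower than both neighbours and 0 higher. Of 28 tested glycolysis genes 2 (7.14%) were lower than both neighbours. LDHA, which turns pyruvate into lactate, was at 269, 305 and 354 scaled counts at 16 cells, against 2140, 4863 and 2053 at 8 cells and 924, 794 and 704 in blastocysts (9.76-fold and 2.61-fold below, adjusted p 2.3e-06 and 0.0031), with no overlap and no loss on leaving out a library. PDK3, a kinase that shuts pyruvate dehydrogenase, was at 254, 347 and 228, against 1476, 2313 and 1150 and 597, 486 and 462, and was lost without 16-cell replicate 1 or 3 or blastocyst replicate 1 (larger p 0.054 to 0.076). Of 34 sterol and lipid genes 5 (14.7%) were lower, HMGCS1, CYP51A1, SREBF2, ACLY and STARD4. HMGCS1, an early enzyme of the mevalonate pathway, was at 972, 664 and 1203, against 2636, 2993 and 1878 and 4504, 1606 and 2274 (2.65-fold and 2.95-fold below, adjusted p 0.0034 and 0.0022). ACLY, which makes acetyl-CoA from citrate, was at 1348, 988 and 1036, 2.27-fold and 4.05-fold below.

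SREBF2, the transcription factor of sterol synthesis, was at 34.8, 726 and 79.8 scaled counts, so 16-cell replicate 2 lay within the range of both neighbours. Its call was lost without 8-cell replicate 2, 16-cell replicate 1 or 3 or blastocyst replicate 2 (larger p 0.093 to 0.18). CYP51A1, a sterol demethylase, was at 49.4, 79.1 and 110 and was lost without 8-cell replicate 2, 16-cell replicate 1 or blastocyst replicate 1 (larger p 0.066 to 0.11). STARD4, a carrier of cholesterol, was at 0 in all 3, with 1.43 to 44.6 at 8 cells and 9.68 to 14.2 in blastocysts. Of 37 antioxidant genes 4 (10.8%) were lower, GSR, PRDX1, PRDX2 and PRDX6. PRDX2, a peroxiredoxin, was at 42.7, 152 and 174, against 636, 724 and 553 and 5026, 6805 and 3680 (5.17-fold and 42-fold below, adjusted p 1.4e-04 and 5.1e-09), and GSR, glutathione reductase, at 206, 158 and 186, 3.87-fold and 3.62-fold below; both held with each library left out. PRDX1 at 390, 232 and 514 was lost without 8-cell replicate 1 or 2 or 16-cell replicate 2 (larger p 0.067 to 0.14). PRDX6 at 28.1, 59.3 and 145 overlapped the 8-cell libraries and was lost without 8-cell replicate 2 or 16-cell replicate 1 or 2 (larger p 0.072 to 0.18).

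Of 29 tested genes of the integrated and endoplasmic reticulum stress response 3 (10.3%) were lower than both neighbours and 0 higher, the stress sensor SESN2 and the kinases EIF2AK3 and EIF2AK4, which phosphorylate the initiation factor eIF2. EIF2AK3 was at 110, 130 and 79.8 scaled counts at 16 cells, against 326, 559 and 567 and 179, 222 and 305 (adjusted p 4.4e-04 and 0.038), and was lost without 16-cell replicate 1 or 3 or blastocyst replicate 2 or 3 (larger p 0.054 to 0.13). EIF2AK4 was lost without any 1 of the 8-cell replicates, 16-cell replicate 1 or blastocyst replicate 3 (larger p 0.05 to 0.24). SESN2, at 15.7, 8.47 and 13, was lost without 16-cell replicate 2 or blastocyst replicate 1 or 2 (larger p 0.073 to 0.093). BCL2L1, an inhibitor of apoptosis, was the 1 gene of 26 of its list that was lower (3.85%), with 0 higher, a share near that of all genes. It was at 59.5, 33.9 and 16.7, against 509, 428 and 90.6 and 283, 872 and 254 (9.33-fold and 12.8-fold below, adjusted p 0.0012 and 1.9e-04), and held with each library left out.

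Of 30 immediate early genes 1 was higher, JUND, and 1 lower, FOSL2 (3.33% each), both parts of the AP-1 factor. JUND was at 183, 432 and 228 scaled counts at 16 cells, against 39.9, 48.1 and 68.2 and 70, 107 and 156 (5.4-fold and 2.53-fold, adjusted p 9.0e-04 and 0.039), and was lost without 16-cell replicate 2 or blastocyst replicate 1 or 2 (larger p 0.072 to 0.17). FOSL2 was at 0, 0 and 42.7 and was lost without 16-cell replicate 1 or 2 or blastocyst replicate 2 (larger p 0.058 to 0.059). Of 48 chaperone genes 1 (2.08%) was lower, the prefoldin PFDN4 at 0, 2.82 and 20.4, and 0 were higher. PFDN4 was lost without 8-cell replicate 1 or 16-cell replicate 1 or 2 (larger p 0.067 to 0.2). Of 46 proteasome genes 2 were higher and 2 lower (4.35% each), PSMA6 and PSMB5 higher and PSMD5 and PSMD11 lower. PSMD11, of the proteasome lid, was the 1 of these 4 that held with each library left out, at 865, 294 and 351, against 918, 1578 and 1079 and 1304, 1010 and 1131.

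Of 49 nuclear transport genes 1 (2.04%) was higher than both neighbours, the exportin XPO5, and 3 (6.12%) were lower. KPNA2, an importin alpha, was at 2300, 1626 and 1030 scaled counts at 16 cells, against 7473, 9145 and 5167 at 8 cells and 4404, 3237 and 3824 in blastocysts (4.4-fold and 2.31-fold below, adjusted p 1.2e-05 and 0.0011), and held with each library left out. RANBP1, a cofactor of the Ran GTPase, was at 53.9, 172 and 102, against 257, 346 and 240 and 876, 1196 and 712, and was lost without 8-cell replicate 2 or 16-cell replicate 1 (larger p 0.054 to 0.076). XPO6, the exporter of actin, was at 630, 1180 and 791, against 1152, 3148 and 1218 and 1518, 2044 and 1460, with overlap with the 8-cell libraries, and was lost without 8-cell replicate 2, 16-cell replicate 1 or 3 or blastocyst replicate 1 or 2 (larger p 0.054 to 0.24). XPO5, the exporter of microRNA precursors, was at 3507, 2126 and 2108, 2-fold and 2.43-fold above its neighbours, and was lost without 16-cell replicate 1 (larger p 0.07). Of 37 small GTPases of membrane traffic and the cytoskeleton, a list written after the values were seen, 11 (29.7%) were lower than both and 2 (5.41%) higher. RAP1A, which acts on integrins and junctions, was at 1615, 1239 and 889, against 7056, 7091 and 3275 and 12998, 4277 and 5119 (4.65-fold and 5.98-fold below, adjusted p 1.9e-04 and 3.5e-05). ARF4, of Golgi traffic, was at 466, 127 and 501, 4.31-fold and 3.55-fold below, and RAB18, of lipid droplets, was higher, at 1266, 1138 and 1195, against 669, 347 and 437 and 387, 289 and 326 (2.48-fold and 3.59-fold, adjusted p 0.01 and 8.3e-04).

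Among further genes with values fixed for report, 1 nucleolar protein came close to the rule. NPM1 was at 834, 937 and 1010 scaled counts at 16 cells, above all neighbour libraries (731, 187 and 587 at 8 cells, 417, 229 and 432 in blastocysts), but was called against the blastocyst only (adjusted p 0.084 and 0.026). With a replicate block (larger p 0.048) or without 8-cell replicate 1 it was called against both. FBL, the methyltransferase of ribosomal RNA, was at 3764, 2022 and 1444 and was called against the 8-cell embryo only (adjusted p 0.0012 and 0.46). KLF4 was at 10173, 7423 and 5369, above every neighbour library, with adjusted p of 0.15 against the 4456, 4617 and 5083 of the 8-cell embryo and 2.4e-05 against the 1316, 1525 and 1700 of the blastocyst. NLRP5 and ZAR1, maternal effect genes, were at 4.49, 316 and 165 and at 14.6, 0 and 3.71, between or near stages of higher and lower level. ATP1B1, a subunit of the sodium pump, was at 2.25, 59.3 and 18.6, below the 147, 174 and 164 of the 8-cell embryo (adjusted p 0.0017) and not called against the 3.33, 5.48 and 6.78 of the blastocyst (adjusted p 0.19). HSPA1A had 0 reads in all 18 libraries and was not tested.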

How the data were processed

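RNA of pools of 10 oocytes or embryos was amplified with mixed random and poly(A) priming (NuGEN Ovation, which does not mark strand), per the labels' protocols. The authors deposited 1 table of log2-scale, variance-stabilised values for 21668 genes. Per the submitters' processing notes the tools were CASAVA 1.6, TopHat2 2.0.3, HTSeq and DESeq, with build UMD3.1. Neither the annotation nor how multiply matching reads were handled is given in the sources used here, so genes with close copies or antisense partners are uncertain. The closed form of the transformation turned all 390024 deposited values into whole read counts (100%, tolerance 1e-08), and scaled counts and read totals come from it. RefSeq (assembly ARS-UCD2.0) served for names only: 18745 genes matched and 3326 had no symbol.

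In limma 3.58.1 (R 4.3.3) a stage model with a variance trend was fitted to the values of the 18 libraries. It took the 17138 genes that had reads in 3 or more libraries. The procedure was also run on simulated data with the same spread per gene in all stages. That run could not check the p-values under a larger spread at 16 cells. Tests were two-sided, adjusted (Benjamini-Hochberg) over all these genes, with a threshold of 0.05. Ratios are of stage means of scaled counts and are left out where a stage had at most 3 reads over its libraries. Named genes are the 15 largest rises and falls with a symbol and no overlap, ranked by the smaller difference, up to 4 called members of each list in each direction (at most 2 where none was called), and 24 fixed genes. The members and lists were chosen with earlier results of these data known, and 7 lists were added after the values were seen. Alternatives changed the libraries in the fit, scaling, weights, filter, test and pairing, or left out a library. Tables and plots were made in Python 3.11.15 (pandas 2.3.3, matplotlib 3.10.9). The labels number the replicates in each stage. Same-numbered libraries deviated together between 16 cells and blastocysts (r 0.113, 0.134 and 0.108) and little between 8 and 16 cells (0.033, 0.051 and 0.107) or 8 cells and blastocysts (0.038, 0.001 and 0.059), so the numbers may pair 16-cell and blastocyst libraries, by the data and not the labels, and a fit with a replicate block was an alternative. No sequence or coordinate was used here. Some called members of the lists are counted but not reported here by name.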

Additional observations from a re-analysis of the deposited data

How the results depend on the processing

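No named gene that was called against both neighbours changed direction under the 19 alternatives, 2 of them chosen after seeing the data. Of the genes higher than both neighbours 107 (26%), and of those lower 210 (30.2%), were called under every alternative that tested them. Fitting only the 9 libraries of the 3 stages called 229 genes higher and 284 lower than both. Of the 411 and 695 genes of the main fit, 217 (52.8%) and 283 (40.7%) were among them. The same fit called 892 and 1038 genes against the mean of the neighbours, and 1653 lower than at 8 cells. It has fewer residual degrees of freedom and leaves out the oocyte and early embryo libraries, whose replicates were more alike than those at 16 cells. The part of either in the lower counts was not tested. Array weights were 0.31, 0.545 and 0.502 in the 16-cell libraries, so all of these were weighed down. They were 1.417, 0.304 and 0.566 at 8 cells and 0.915, 0.666 and 1.403 in blastocysts. The fit with these weights called 194 and 421 against both, 688 and 1143 against the mean, and 1509 higher than at 8 cells. Testing only the upper part of genes by mean value called 1575 lower than in blastocysts and 1476 lower than the mean, with 8569 genes tested. Voom on recovered reads called 1409 lower than the mean, and the cause was not tested. With each library left out in turn, genes higher than both numbered 304 (without 8-cell replicate 2) to 495 (without 8-cell replicate 3), and genes lower than both 563 (without blastocyst replicate 1) to 785 (without 16-cell replicate 3). The same fits gave 1754 to 2768 genes higher and 2389 to 2770 lower than at 8 cells, 1876 to 2450 higher and 2477 to 3367 lower than in blastocysts, and 1373 to 2031 higher and 1704 to 2399 lower than the mean. The labels number replicates in every stage, and a replicate block moved the counts against both neighbours to 480 and 736, against 8 cells to 2716 and 2909, against blastocysts to 2402 and 3228 and against the mean to 1928 and 2406. Beside the calls given in the report (MYCN, CCND3, TGFB2 and RARA lost, NPM1 gained), the block ended that of H2BC13 (larger p 0.053) and changed no other call of a named gene. At 16 cells 1 read is worth 1.12, 2.82 and 1.86 scaled counts in replicates 1 to 3, which limits the falls that could be seen in genes of low level.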
